A study of Mus musculus with 2 samples.

Results

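The anaphase-promoting complex, also called the cyclosome or APC/C, is a ubiquitin ligase built of many subunits. Described here are 10 of its genes, *Anapc10*, *Anapc1*, *Anapc2*, *Anapc4*, *Anapc5*, *Anapc7*, *Anapc11*, *Anapc13*, *Cdc20* and *Fzr1*, chosen by gene name from the 21244 genes that had a probe and a reference symbol. All probes other than controls that carried these names were taken, which gave 16 probes on 25 of the 59305 such spots. Total RNA of incisors was measured from wild-type mice, for which the study names C57BL/6J, and from *Sox21* KO mice, which lack the transcription factor Sox21. Both genotypes are labelled as postnatal day 0, and the methods place the mice 1 day later. Each genotype had 1 Agilent one-colour array, and neither the number of pooled animals nor the part of *Sox21* that the KO allele lacks was taken from the sources used here. With 1 array per genotype, no difference has a replicate check, no test was run, and precision is limited by how few arrays there are.

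The APC/C attaches ubiquitin to proteins that must be destroyed for cells to leave mitosis and to stay in G1. Cyclins, securin and the mitotic kinases are its best known substrates. Anapc2, a cullin, and Anapc11, a RING finger protein, form the catalytic core. Anapc1, Anapc4 and Anapc5 form the scaffold. Anapc7 belongs to the arm of tetratricopeptide repeat proteins, together with Cdc16, Cdc23 and Cdc27, and Anapc13 is a small subunit that stabilizes this arm. Anapc10 forms the receptor for the destruction box of substrates jointly with an activator, which is Cdc20 in mitosis and Fzr1, also called Cdh1, from late mitosis through G1. The activator Cdh1 is a different protein from E-cadherin, whose gene carries the symbol *Cdh1*. In the growing incisor, dividing cells lie at the base and the enamel-forming ameloblasts leave the cell cycle as they differentiate.

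The probes of *Anapc10*, *Anapc7* and *Anapc11* are shown first, because 4 of them lay near background and 2 had a bright partner in the same transcript. Given are 30 of the 60 bases of each, 5′ to 3′ as in the array design, from its beginning or, where it holds the polyadenylation hexamer AATAAA (in capitals), around that hexamer. This hexamer is the usual signal upstream of the site where a transcript is cut and polyadenylated. On the strand of the probe it occurred in 10.1% of all 55679 probes and in 2 of the 16 member probes, the bright probe of *Anapc7* and the bright probe of *Anapc5*.
Anapc10, the only probe: ctctgttgctttgaatccatgaatgagaag
Anapc7, the bright probe: acaggctcacctAATAAActgttcagtgtg
Anapc7, the downstream probe: agaggcagccatgtgggcctagacagtttg
Anapc7, the cDNA probe: gtgaagttagaatctttaattgccattttt
Anapc11, the bright probe: ggttgaaaggagctttgctgactgttttgt
Anapc11, the downstream probe: caccgtgagcaccacaccaaaacaactcca

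Signals below are processed intensities in arbitrary units, from which the scanner software had removed background, and ± is the error that the software gives for that spot. The log2 ratio is *Sox21* KO minus wild-type after each signal was divided by the 75th percentile of its array, which was 268 for wild-type and 276 for KO. Scaling to the median of the spots in its place adds 0.07 to each log2 ratio, so that ratios between -0.07 and 0 turn their sign under it. A gene is called measured where a probe carried the scanner's mark for well above background on both arrays. Of the 10 genes, 9 were measured, all but *Anapc10*. Among all 21244 genes with a probe, 35.0% were not measured. The targeted gene *Sox21* had 2 probes, with signals of 1362 ± 136 in wild-type and 659 ± 66.1 in KO at the brighter and of 286 ± 29.0 and 103 ± 11.3 at the other. Its log2 ratios were -1.09 and -1.51, and since the position of the probes relative to the missing part of the gene was not known, the remaining signal does not check the deletion.

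Markers of the cell types in the incisor were read before the complex. The enamel matrix gene *Amelx*, which defines ameloblasts, had signals of 394211 in wild-type and 428250 in KO. Of 7 ameloblast genes, 5 were lower and 2 higher in KO with a median log2 ratio of -0.62, from *Amtn* at -1.89 and *Klk4* at -1.05, both of the maturation stage, to *Odam* at 0.63. Of 5 odontoblast genes, 4 were higher with a median of 0.11, from *Dspp* at -0.01 to *Dmp1* at 0.93. Of 5 skeletal muscle genes 4 were measured, 3 of them lower, with a median of -0.59, from *Ckm* at -0.71 to *Myh3* at 0.64. The 5 mesenchymal genes had a median of 0.15, from *Col3a1* at -0.12 to *Vim* at 0.29, and the 5 dental epithelial genes one of 0.18, with *Cdh1* lowest at -0.09. Of 4 erythroid genes 3 were measured, with a median of -0.10, from *Hba-a1* at -0.36 to *Ahsp* at 0.19. Fewer cells of a type and less RNA per cell cannot be told apart in whole tissue, and the part of these shifts in the values below was not tested.

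*Anapc10*, the substrate receptor subunit, had a single probe, at chr8:82301144-82301203 on mm9, plus strand, beginning at base 2725 of its transcript. Read as sense strand, its 60 bases held a stop codon in all 3 reading frames, so they cannot lie wholly within a coding sequence. Its signal was 14.2 ± 5.12 in wild-type and 4.37 ± 4.39 in KO, and neither array gave it the mark for well above background. The lowest signal that carried the mark was 21.3 in wild-type and 19.5 in KO.

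The wild-type spot of *Anapc10* passed the weaker mark of the software, for a signal that is positive and significant against background, and the KO spot did not. The KO value was a surrogate, a number that the software writes in place of a signal too low to use. The raw mean of the spot was 54.0 in wild-type and 39.9 in KO, over local backgrounds of 25 and 23. Both the raw mean and the processed value were higher in wild-type, and the processed KO value was no measurement of the spot. No ratio is given for *Anapc10*.

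The 308 negative-control spots of each array, which carry no probe for a mouse transcript, show what signal arises without a target. They had a median of 5.13 and a 95th percentile of 5.99 in wild-type, and of 4.69 and 5.39 in KO. In wild-type, 5 of them reached the *Anapc10* signal. In KO, 220 of them reached its surrogate. The surrogates of an *Anapc7* probe, 5.59 in wild-type and 4.93 in KO, also lay below the 95th percentile of the controls. How many control values are themselves surrogates was not counted, so these percentiles may partly reflect numbers written by the software. Of the wild-type controls, 2 carried the mark for well above background, the brightest at 147, and of the KO controls 0 did. The raw mean of the controls had a median of 35.8 and a 95th percentile of 45.5 in wild-type, and of 32.6 and 40.8 in KO, so the raw *Anapc10* spot lay above the 95th percentile in wild-type and below it in KO.

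**Figure D1:**
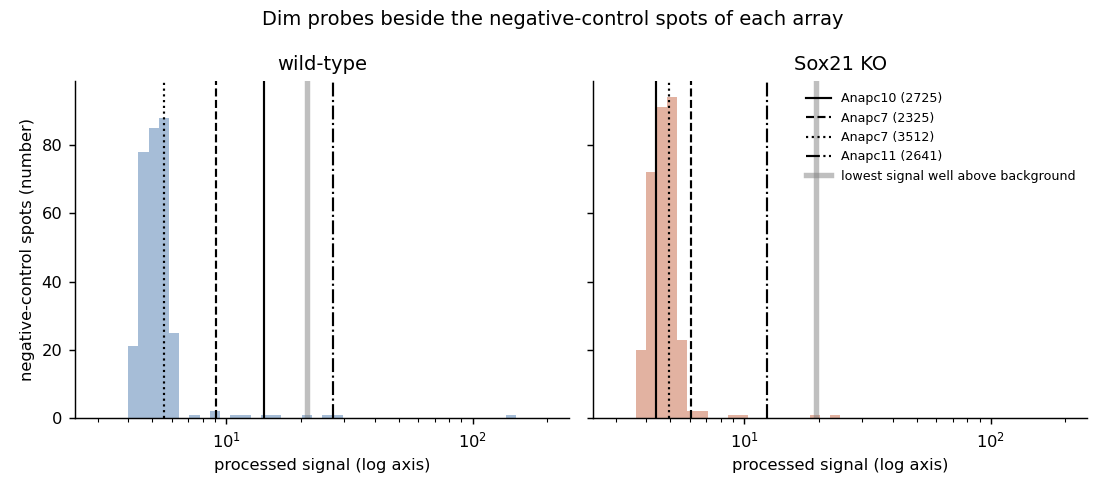
Histograms of the processed signal (log axis) of the 308 negative-control spots on the wild-type array (left) and the *Sox21* KO array (right), with lines for 4 dim probes labelled by gene and by the first base of the probe in its transcript. The *Anapc10* line lies at 14.2 in wild-type, above the 95th percentile of the controls and below the lowest signal marked well above background (grey), and at the surrogate of 4.37 within the controls in KO.

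The pattern of a weak mark on the wild-type array and a surrogate on the KO array was shared by many probes. Without the mark for well above background in wild-type, 2838 of the 55679 probes had it, and 3141 probes had the opposite pattern, a weak mark in KO and a surrogate in wild-type. Both arrays held surrogates for 15386 probes.

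The genes next to *Anapc10* in the reference order were measured with 2 genes on each side. On one side lie *Abce1*, which encodes a ribosome recycling factor and is transcribed from the opposite strand, and *Otud4*, which encodes a deubiquitinase. Their log2 ratios were -0.06 and 0.26. On the other side *Hhip*, which encodes a Hedgehog-binding protein, was at 0.31 at its brighter probe and 0.75 at the other, and *Smarca5*, a chromatin remodelling ATPase, was at 0.09. Of the 4 genes, 3 were higher in KO and 0 were at least 2-fold apart.

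In the catalytic core, *Anapc2* at chr2:25141061-25141120 had a signal of 22441 ± 2244 in wild-type and 22363 ± 2236 in KO, with a log2 ratio of -0.05 and an error of 0.20 propagated from both spots. The arrays did not separate beyond that error. *Anapc11*, which encodes the RING subunit, had 10 repeat spots of its bright probe at chr11:120466908-120466967. The spots ranged from 7035 to 8031 in wild-type and from 6874 to 8604 in KO, so that the ranges overlapped. Their log2 ratios had a mean of 0.00 and an SD of 0.06 over spots of the same hybridization, from -0.08 to 0.08, with 5 above and 5 below 0.

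The other probe of *Anapc11* begins 1862 bases downstream on both the transcript and the genome. Its signal was 27.0 ± 5.80 in wild-type, where it was well above background, and 12.4 ± 4.78 in KO, where it was not. Against the lowest signal with that mark on the KO array, wild-type was at least 1.43-fold higher at this probe, a bound that leaves out the error of the spot. A KO control spot without the mark reached 22.3, above that lowest signal of 19.5, so the bound is not firm. Of the negative controls, 1 reached it in wild-type and 2 in KO. The 2 probes of *Anapc11* therefore gave different readings, and the dim one lay near background.

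Among the scaffold genes, *Anapc1* at chr2:128438497-128438556 had a signal of 2908 ± 291 in wild-type and 2981 ± 298 in KO, with a log2 ratio of -0.01. *Anapc4* at chr5:53257856-53257915 had 5173 ± 517 and 5048 ± 505, with a log2 ratio of -0.08. For both, the difference between arrays was smaller than the error of either spot.

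*Anapc5*, the third scaffold gene, had 3 probes. The brightest, at chr5:123237740-123237799, had 23366 ± 2337 in wild-type and 22749 ± 2275 in KO, with a log2 ratio of -0.08. A probe beginning 241 bases upstream in the same transcript spans 343 bases of the genome, chr5:123237981-123238323, and so crosses a splice junction. It had 1322 ± 132 and 1506 ± 151, with a log2 ratio of 0.15. The third, designed on a cDNA and placed by the array design at chr5:10957954-10958013, far from the other probes, had 971 ± 97.3 and 1013 ± 101, with a log2 ratio of 0.02. The 3 probes stood on both sides of 0, each within its error of 0.20.

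*Anapc7*, of the tetratricopeptide arm, also had 3 probes. The bright probe at chr5:122894401-122894460 had 2279 ± 228 in wild-type and 2458 ± 246 in KO, with a log2 ratio of 0.07 and an error of 0.20. The downstream probe of the same transcript begins 95 bases after it, which is 63 bases after the first letter of the hexamer AATAAA printed above. Its signal was 9.08 ± 4.74 in wild-type and 6.06 ± 4.36 in KO, without the mark for well above background on either array.

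The cDNA probe of *Anapc7* lies 1020 bases upstream of the bright probe on mm9. It held surrogates on both arrays, 5.59 in wild-type and 4.93 in KO, and its GC content of 18.3% was the lowest of the 16 probes, whose others ran from 36.7% to 51.7%. Only 1 of the 3 *Anapc7* probes could thus be read. Of 3962 RefSeq transcripts with several probes and at least 1 of them measured, 21.7% had another probe well above background on neither array. In those 858 transcripts the dimmest such probe began downstream of the brightest in 38.6% and upstream in 61.4%. Probes that begin between bases 2001 and 3000 of a RefSeq transcript, as the *Anapc10* probe and both RefSeq probes of *Anapc7* do, were measured in 69.3% of cases.

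*Anapc13* at chr9:102536466-102536525, the small subunit of that arm, had 14894 ± 1489 in wild-type and 13601 ± 1360 in KO. Its log2 ratio of -0.17 was the farthest from 0 of the 9 measured genes and stayed below its error of 0.20.

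The activators were near 0 as well. *Cdc20* at chr4:118105534-118105593, minus strand, had 2726 ± 273 in wild-type and 2710 ± 271 in KO, with a log2 ratio of -0.05. *Fzr1* had 2 probes, at chr10:80829827-80829886 with 1473 ± 147 and 1627 ± 163 and at chr10:80830387-80830446 with 624 ± 62.6 and 678 ± 68.0, with log2 ratios of 0.10 and 0.08. Both *Fzr1* probes were higher in KO, by less than their error of 0.20.

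**Figure D2:**
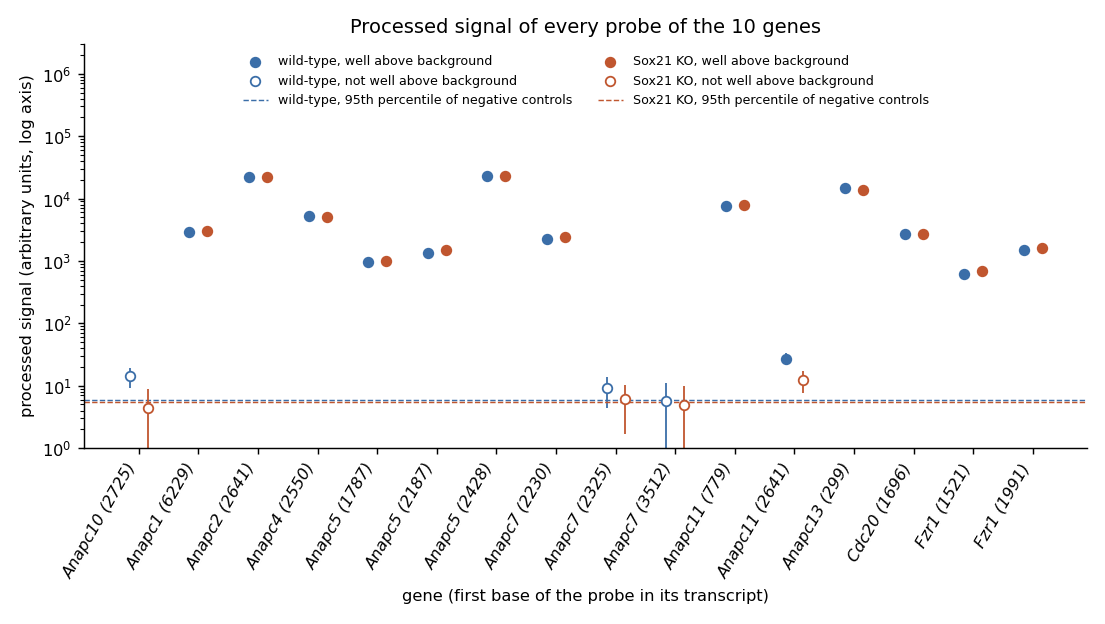
Processed signal (log axis, arbitrary units) of all 16 probes of the 10 genes on the wild-type and *Sox21* KO arrays, labelled by gene and first base of the probe in its transcript; bars are the scanner's error for the spot, end at the axis limit of 1 and are hidden by the point where short, and dashed lines are the 95th percentile of the negative controls. The pairs at 624 and above lie together, and the 4 pairs with an open point lie below 30.

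Over the 16 probes, 12 were well above background on both arrays, 1 in wild-type alone and 3 on neither. Of all spots other than controls, 49.7% carried that mark in wild-type and 50.4% in KO. Over the 9 measured genes, each read at its brightest measured probe, the median log2 ratio was -0.05, with a range from -0.17 to 0.10. The median over all 13803 measured genes was 0.01. At the 75th percentile scaling, 3 of the 9 were above 0 and 6 below, and at a median scaling 6 were above 0, so neither direction is given for the complex. Above 0 were 52.4% of all measured genes at the 75th percentile scaling. At the median scaling the median was 0.03 for the members and 0.09 for all measured genes. Of the 9 genes, 8 lay between the quartiles of all measured genes, -0.13 and 0.16.

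At least 2-fold apart were 0 of the 9, as against 1.41% of all measured genes. A ratio larger than its propagated error was found for 0 of the 9 and for 33.9% of all measured genes. That error lay between 0.204 and 0.205 for the 12 readable member probes, since the software's error for a bright spot is close to a fixed share of its signal. It covers the spot and not the variation between animals or labellings.

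The other 6 core subunits were all measured, so that 13 of the 14 core subunits had a reading. Their median log2 ratio was -0.12, with 2 above and 4 below 0 and 0 at least 2-fold apart. *Cdc27*, of the tetratricopeptide arm, had 722 in wild-type and 579 in KO, with log2 ratios of -0.36 and -0.32 at its 2 probes. *Cdc23* and *Cdc16* of the same arm were at -0.31 and -0.22, with signals of 115 and 95.3 and of 3809 and 3367. A ratio larger than its error was thus found for 3 of the 13 measured core subunits, beside 33.9% of all measured genes. Over the settings tried, *Cdc27* ran from -0.37 to -0.29 and stayed outside its error of 0.20. *Cdc23* ran from -0.33 to -0.20 and *Cdc16* from -0.26 to -0.15, so that both came within their errors of 0.23 and 0.20 at some setting. Their partner *Anapc7* was at 0.07. Of the small subunits, *Cdc26* was at 0.07, *Anapc16* at 0.03 and *Anapc15* at -0.02 with its 4 probes between -0.06 and 0.12.

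**Figure D3:**
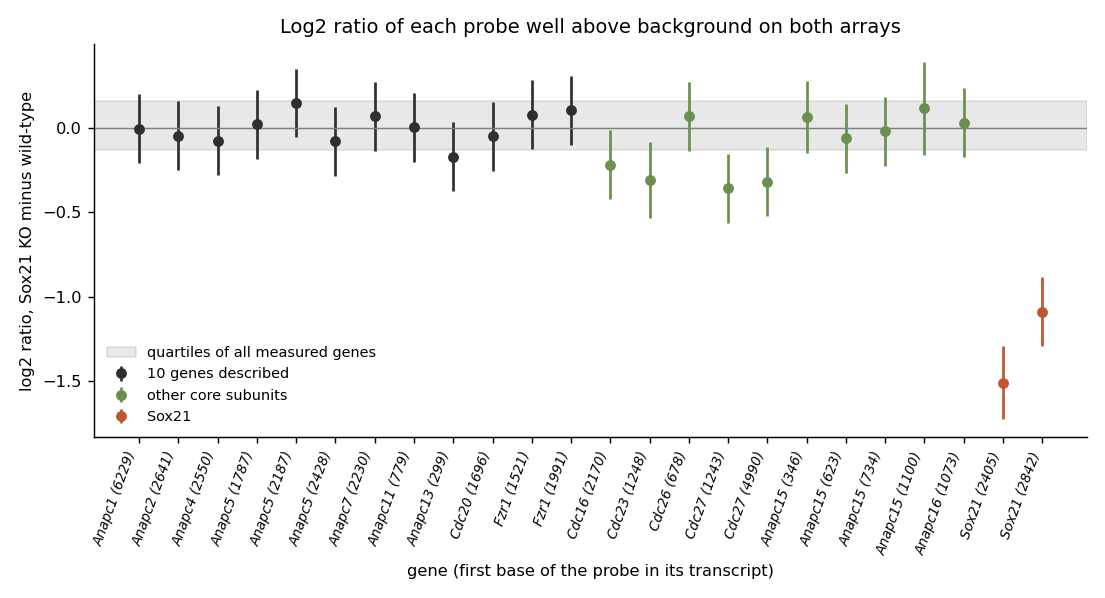
Log2 ratio (*Sox21* KO minus wild-type) of each probe well above background on both arrays for 9 of the 10 genes (black), the 6 other core subunits (green) and *Sox21* (orange), labelled by gene and first base of the probe in its transcript; bars are the error propagated from both spots and the grey band holds the quartiles of all measured genes. The black points lie between -0.17 and 0.15, the *Cdc27* points at -0.36 and -0.32, and the *Sox21* points at -1.51 and -1.09.

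The enzymes that hand ubiquitin to the APC/C were read next. *Ube2c*, which starts the chains, and *Ube2s*, which extends them, were at -0.01 and -0.07, and *Ube2d1*, a general conjugating enzyme, was at -0.43 with signals of 67.0 and 51.4. All 3 were below 0, with a median of -0.07. Among 9 genes of its inhibitors and of the spindle checkpoint, 7 were measured, 5 above and 2 below 0, with a median of 0.04. The highest was *Bub1b*, whose product BubR1 holds Cdc20 in the checkpoint complex, at 0.34, and the lowest was *Mad2l1bp*, which encodes the protein that takes Mad2 off Cdc20, at -0.11. *Ttk* and *Fbxo43* were not measured, and the 3 probes of *Mad2l1* ran from 0.10 to 0.62.

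Of 14 genes for known substrates, 13 were measured, with 6 above and 7 below 0, a median of -0.02 and 0 at least 2-fold apart. The highest was the centrosomal kinase gene *Nek2* at 0.22, and the lowest was *Skp2*, whose product is the substrate receptor of another ubiquitin ligase, at -0.24. *Aurkb* was not measured. These are values at the brightest probe, and other probes lay farther out, with the 3 probes of *Ccnb1* from 0.05 to 0.50 and the 2 of *Gmnn* from -0.43 to -0.04. The 8 proliferation markers had a median of 0.02, from *Cdk1* at -0.06 to *Top2a* at 0.21, with *Mki67* at 0.18.

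**Figure D4:**
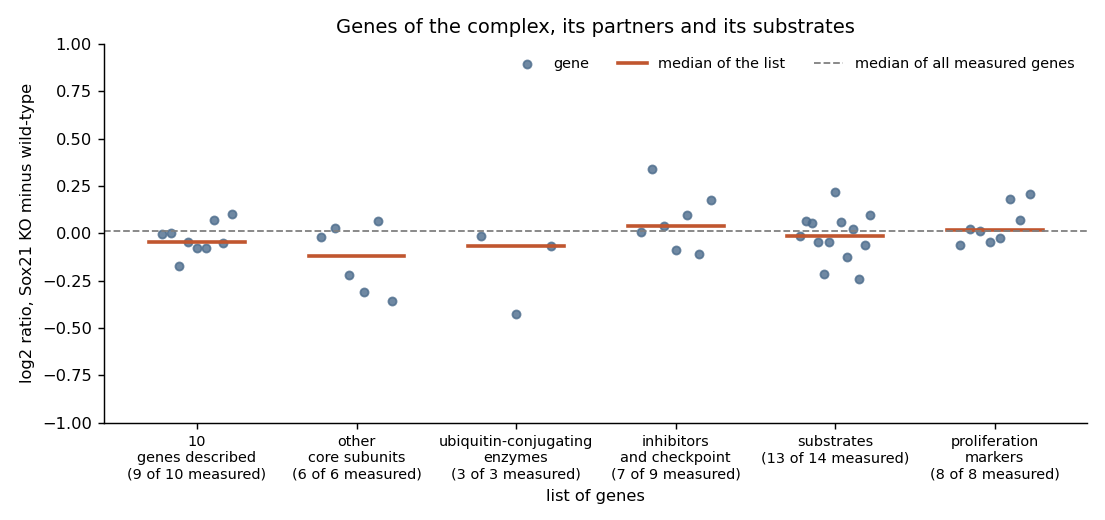
Log2 ratio (*Sox21* KO minus wild-type) of each measured gene in 6 lists around the APC/C, 1 point a gene at its brightest measured probe; orange bars are the medians of the lists and the dashed line is the median of all measured genes, 0.01. The medians run from -0.12 for the other core subunits to 0.04 for the inhibitors and checkpoint genes, and no point is as far from 0 as 1.

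The study also followed further genes, as RNA or as protein, in cultured dental epithelial cells depleted of Sox21 or of parts of the APC/C. Array values in the incisor are given here for 4 of them, and others, such as *Vim* at 0.29, are not in this list. The study also stained E-cadherin and N-cadherin in incisors of older mice, and reports strong N-cadherin in the KO ameloblast layer. The values here are RNA of whole P0 incisors, which differs from that staining in molecule, age and cells covered. *Smad3*, which encodes a transducer of TGF-β signals, had 5192 in wild-type and 5717 in KO, with log2 ratios of 0.10 at this probe and -0.03 at the other. *Skp2* had 219 and 191, at -0.24. *Cdh1*, the gene of E-cadherin, had 4458 and 4298, at -0.09. *Cdh2*, the gene of N-cadherin, had 9742 and 7385, at -0.44 and at -0.30 at its other probe, which exceeded the error of 0.20 and stayed below 0 at every setting. The 4 genes had a median of -0.17, with 0 at least 2-fold apart.

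The promoters of the 10 genes were searched on both strands, over 250 bases before and 50 bases after each start in RefSeq windows of GRCm38.p6, for AACAAT and ACAATG, letters that Sox proteins are known to favour, and for TTTGAA, the cell cycle genes homology region found in many genes that peak in mitosis. All 10 genes matched, with 12 windows, of which *Anapc10* had 2. Neither window of *Anapc10* held any of the 3 motifs, which says only that these letters were not there. The study reports Sox21 binding at the *Anapc10* promoter in cultured dental epithelial cells, and a candidate site there from motif databases. Where that site lies relative to these windows was not examined, and the motifs of those databases were not searched. AACAAT occurred in 10.72% of all 32851 windows, ACAATG in 12.57% and TTTGAA in 17.89%. Among the members, *Anapc7* held AACAAT and ACAATG as the overlapping reverse letters ATTGTT and CATTGT, in that order, and also held TTTGAA. *Cdc20* held TTTGAA from 18 to 13 bases before its start. The *Cdc20* stretch is shown because the position of this motif is close to its start, with the motif in capitals, at chr4:118437344-118437373 on GRCm38.p6, minus strand.
Cdc20, promoter: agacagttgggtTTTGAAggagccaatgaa
*Anapc7* and *Cdc20* were at 0.07 and -0.05, both within their error.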

How the data were processed

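Total RNA of P0 incisors was measured on 2 Agilent one-colour arrays, 1 per genotype. The authors amplified and labelled 50 ng of RNA with a low-input kit, and Feature Extraction 10.7.3.1 wrote the deposited background-corrected signal intensities and their errors. The authors also deposited these signals as a ratio, each divided by 1 number per array. Per the labels and methods, a filter on low signals and a percentile shift were applied in that step.

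Here, each processed signal was divided by its array's 75th percentile, taken to log2 and averaged over spots of a probe, without 267 outlier spots. The error of a log2 ratio was propagated from the software's error of both spots, to first order. Probes on 1 array alone were given a bound, and probes on neither none. Probe coordinates are those of the array design on mm9; no gene model of that build was used, so exons and UTRs are not given. Symbols came from RefSeq (GRCm38.p6): of 55679 probes, 26298 were named through their accession, 2044 through the symbol and 355 through a former symbol; the other 26982 keep the array's name. For every list, the highest and lowest gene and any at least 2-fold apart are named, and all 10 genes, the other core subunits and the neighbours of *Anapc10* with all probes; 1 marker gene is not reported here. The members and lists were chosen with earlier results of these data known. The steps were tested on simulated data. Python 3.11.15, numpy 2.4.6, pandas 2.3.3, matplotlib 3.10.9, R 4.3.3 and limma 3.58.1 were used.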

Additional observations from a re-analysis of the deposited data

How the results depend on the processing

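Scaling, background correction, filter, probe choice, threshold and the deposited value table were varied. Of 90 values of single members under these alternatives, 88 moved by less than the median SD of 0.09 between repeat spots, and the 2 others were *Anapc5*, at 0.03 as the mean of its probes and 0.02 at its dimmest. The farthest from 0 of the 90 was 0.20 in size. With a median shift, 6 members were above 0. Without a background filter, 1 member, *Anapc10*, counted as at least 2-fold apart, through a KO value that is a surrogate. With normexp in addition, chosen after these values were seen, 0 members did. That setting adds an offset of 50 to every signal, which pulls the ratios of dim probes toward 0. It therefore cannot decide this count for *Anapc10*. At least 2-fold apart among all genes were 5.66% without the filter and 0.635% with normexp in addition. *Sox21* was at -1.51 at its dimmest probe and -1.30 as the mean. The medians of the members and of the other core subunits moved by less than that SD. No paired analysis was possible because each genotype has 1 array. Signal over background limits *Anapc10* and the dim probes of *Anapc7* and *Anapc11*.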
